A study of Mus musculus with 6 samples.

Results

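Kinesins are motor proteins that use ATP to walk along microtubules. A group of them, the mitotic kinesins, builds and drives the spindle, moves chromosomes and closes the cleavage furrow, and is made mainly by dividing cells. The transport kinesins carry vesicles, mitochondria, RNA and nuclei. The kinesin-1 motor, a pair of heavy chains with a pair of light chains, helps space the nuclei of a myotube along its length. A myoblast that fuses into a myotube leaves the cell cycle, so both kinds of motor can be followed in the same cultures.

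The genes described here are those that the platform annotation names Kif or Kifc followed by a number, with the kinesin light chains Klc1, Klc2 and Klc4. A gene was measured where at least 1 probe set (a group of short oligonucleotides for 1 transcript) is annotated to it alone, which held for 43 genes with 109 probe sets, of 18193 genes and 45037 probe sets in all. By known function, 14 were classed as mitotic, 20 as transport and 9 as other, with earlier results of these data known. No probe set carried the names Klc2 or Kif19a in the annotation used. Each gene is represented below by its brightest probe set over all arrays. Other probe sets are given for called genes that have several and for part of the uncalled genes.

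RNA came from C2C12 cells, an immortalised mouse myoblast line that fuses into myotubes when serum is lowered. The 3 differentiated samples were kept in 2% serum until day 6, and the 3 proliferating samples were myoblasts in 20% serum. Each sample was itself made by combining RNA of cultures grown on different days, so the spread between samples is one between pools and not between single plates. Differentiated cultures also hold unfused cells, and in RNA of a whole culture fewer cells of a type and less RNA per cell cannot be told apart.

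One Affymetrix array was hybridised per sample, and its values are MAS5 signals with a trimmed mean of 249.9 on all 6 arrays. Background was taken as the brightest of the 27 bacterial control probe sets of an array, which lay between 51.9 and 87.0. Changes are log2(signal + 15) in differentiated minus proliferating cells, with the standard error (SE). They were tested with limma, and p-values were adjusted by Benjamini-Hochberg over all 45037 probe sets, with a call at an adjusted p under 0.05. Of the myoblast and myotube markers, 10 of 12 rose in differentiated cells, against 8.67% of all genes. Among these 10 were Tnnt3, Actc1, Acta1 and Myh3 of the contractile apparatus (log2 change 7.21, 6.57, 6.56 and 6.09). The other two, Myod1 and Myf5, were not called.

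The kinesins that were called split by class, since each mitotic call was a fall and each transport call a rise. Because the classes were set with earlier results of these data known, the split is a description and not a test. Of the 14 mitotic kinesins, 10 fell in differentiated cells, none rose, and the median log2 change was -2.14. Of the 20 transport kinesins, 6 rose, none fell, and the median was 0.24. Over all 18193 genes, 8.67% were called higher and 9.05% lower, with a median change of 0.06. The signals of the 2 groups did not overlap, with differentiated lower, for 11 mitotic kinesins, against 15.5% of all genes. They did not overlap, with differentiated higher, for 7 transport kinesins, against 18% of all genes. Among the 9 other kinesins Kif26b rose and Kif2a fell. Counted by probe set, 18 of 27 mitotic probe sets fell and none rose, while 13 of 65 transport probe sets rose and none fell, beside 6.14% higher and 6.43% lower of all probe sets.

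**Figure D1:**
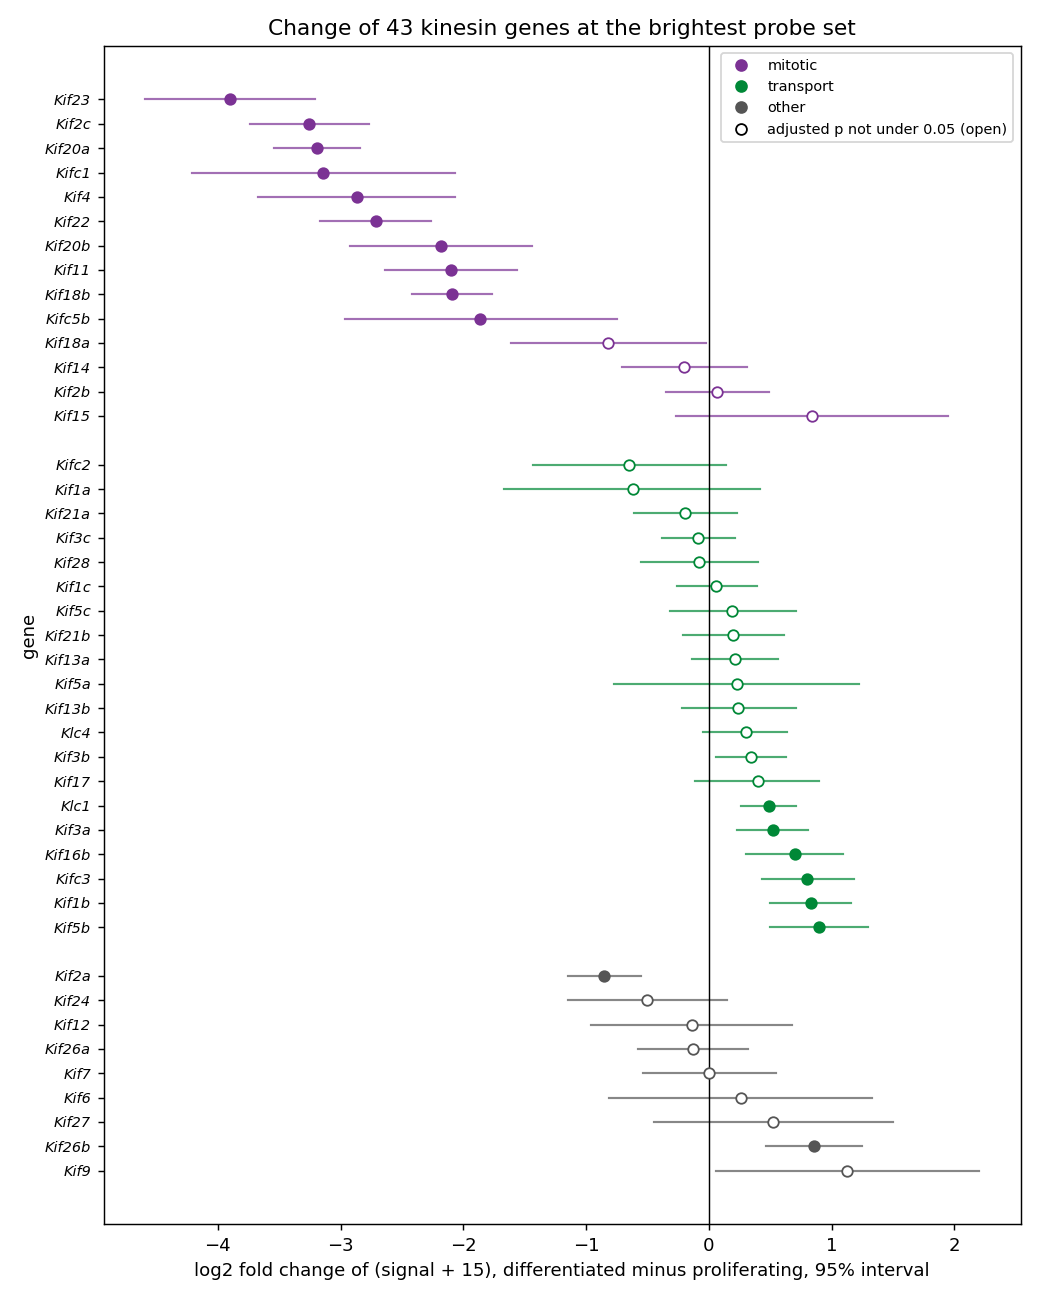
Log2 fold change of signal + 15, differentiated minus proliferating, for the 43 kinesin genes at the brightest probe set, with 95% intervals (3 arrays per group). Filled points passed an adjusted p of 0.05 in limma. The 10 filled mitotic genes lie between -3.90 and -1.86, and the 6 filled transport genes between 0.49 and 0.90. Kif23 and Kifc5b were at background on all differentiated arrays, so their fitted values are not measured sizes. Of the other filled mitotic genes, Kif2c, Kif20b, Kif4 and Kifc1 were at background on part of the differentiated arrays.

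The promoters of these genes were compared for 4 short motifs, each searched on both strands of a window of 250 bases before to 50 after the RefSeq start. Windows were at hand for 35 of the 43 genes, 39 windows in all. Kif13b, Kif20a, Kif21b, Kif28, Kif5a, Kif5b, Kifc2 and Kifc3 had none. The CHR (cell cycle genes homology region), spelled TTTGAA, is an element known from promoters of genes that are transcribed in G2 and mitosis, often with a CCAAT box upstream of it. CHR letters stood in all 9 windows of mitotic kinesins that fell, in 11 of 13 windows of all mitotic kinesins (84.6%), in 1 of 15 of transport kinesins (6.67%) and in 2 of 11 of the other kinesins (18.2%). Of all 32851 promoter windows 17.9% held them. The transport window with the letters belongs to Kif1a, which was near background. The CCAAT letters were in 7 of the 9 windows of mitotic kinesins that fell, in 69.2% of mitotic windows, in 33.3% of transport windows and in 37.4% of all windows. Kif2a, which fell but is not classed as mitotic, held neither the CHR nor the CCAAT letters in any of its windows.

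The GC box and the E-box were more frequent in transport than in mitotic windows. GGGCGG, the GC box, was in 46.2% of mitotic windows, in 80% of transport windows and in 35.7% of all windows. CAGCTG, an E-box of the kind that myogenic factors bind, was in 1 of 13 mitotic windows (7.69%), in 4 of 15 transport windows (26.7%) and in 16.3% of all windows. Both windows of Kif1a are among these 4. Of the windows of transport kinesins that rose, 1 of 5 (20%) held it. Matches of different motifs can share bases, as the CCAAT box and the GC box of Kif3a do. A match is only a run of letters, and no test was made of these shares.

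In 8 of the 9 windows of mitotic kinesins that fell, a CHR lay wholly within 35 bases of the start, a distance chosen after the positions were seen. The match of Kifc5b ends at base 35, so the count follows from that choice. A CHR lay that near the start in 9 of 13 windows of all mitotic kinesins (69.2%), in 3.44% of all windows and in none of the 15 transport windows. The exception was Kif2c, with its CHR 103 to 98 bases before a start that lies inside the gene's RefSeq span. Such a start is not particular to Kif2c. Those of Kif3a, Klc1, Kif14, Kif26a and the Kif1a window with the CHR letters, among others, also lie inside the span of their gene. The stretches below (RefSeq, GRCm38.p6, 80 bases before to 30 after the start, read along the gene's strand) show CHR and CCAAT letters, on either strand, in capitals. The first 7 are mitotic kinesins that fell, of which Kif20b holds no CCAAT letters. Kif26b is a gene that rose although it holds both sets of letters, and Kif3a and Klc1 are transport kinesins that rose, of which neither holds the CHR letters in this stretch.
Kif23, chr9:61946770-61946879, minus strand: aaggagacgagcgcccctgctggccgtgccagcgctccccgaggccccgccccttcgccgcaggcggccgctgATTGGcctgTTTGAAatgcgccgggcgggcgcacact
Kif22, chr7:127042391-127042500, minus strand: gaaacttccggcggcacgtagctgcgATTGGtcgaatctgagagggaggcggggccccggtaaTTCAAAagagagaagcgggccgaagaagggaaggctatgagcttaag
Kif11, chr19:37376302-37376411, plus strand: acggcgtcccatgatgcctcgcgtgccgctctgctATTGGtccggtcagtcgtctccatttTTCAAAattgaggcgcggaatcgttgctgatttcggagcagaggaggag
Kif18b, chr11:102925095-102925204, minus strand: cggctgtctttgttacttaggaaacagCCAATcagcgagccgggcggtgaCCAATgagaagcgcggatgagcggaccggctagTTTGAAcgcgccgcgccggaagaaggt
Kif4, chrX:100625985-100626094, plus strand: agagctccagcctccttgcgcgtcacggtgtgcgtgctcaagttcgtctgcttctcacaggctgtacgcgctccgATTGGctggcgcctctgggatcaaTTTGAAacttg
Kifc1, chr17:33890604-33890713, minus strand: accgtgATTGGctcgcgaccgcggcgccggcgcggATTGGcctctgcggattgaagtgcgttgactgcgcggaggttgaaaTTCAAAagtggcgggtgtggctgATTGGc
Kif20b, chr19:34922278-34922387, plus strand: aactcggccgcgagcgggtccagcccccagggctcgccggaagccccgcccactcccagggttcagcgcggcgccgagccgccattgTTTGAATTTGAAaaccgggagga
Kif26b, chr1:178529045-178529154, plus strand: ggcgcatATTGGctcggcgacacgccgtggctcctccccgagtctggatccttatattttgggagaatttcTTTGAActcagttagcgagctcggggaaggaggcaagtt
Kif3a, chr11:53567289-53567398, plus strand: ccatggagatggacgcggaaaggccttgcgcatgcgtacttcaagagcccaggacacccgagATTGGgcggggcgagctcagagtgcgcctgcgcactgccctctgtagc
Klc1, chr12:111758788-111758897, plus strand: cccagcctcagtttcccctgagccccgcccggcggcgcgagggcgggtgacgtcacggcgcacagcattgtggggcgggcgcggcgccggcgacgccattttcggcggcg

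**Figure D2:**
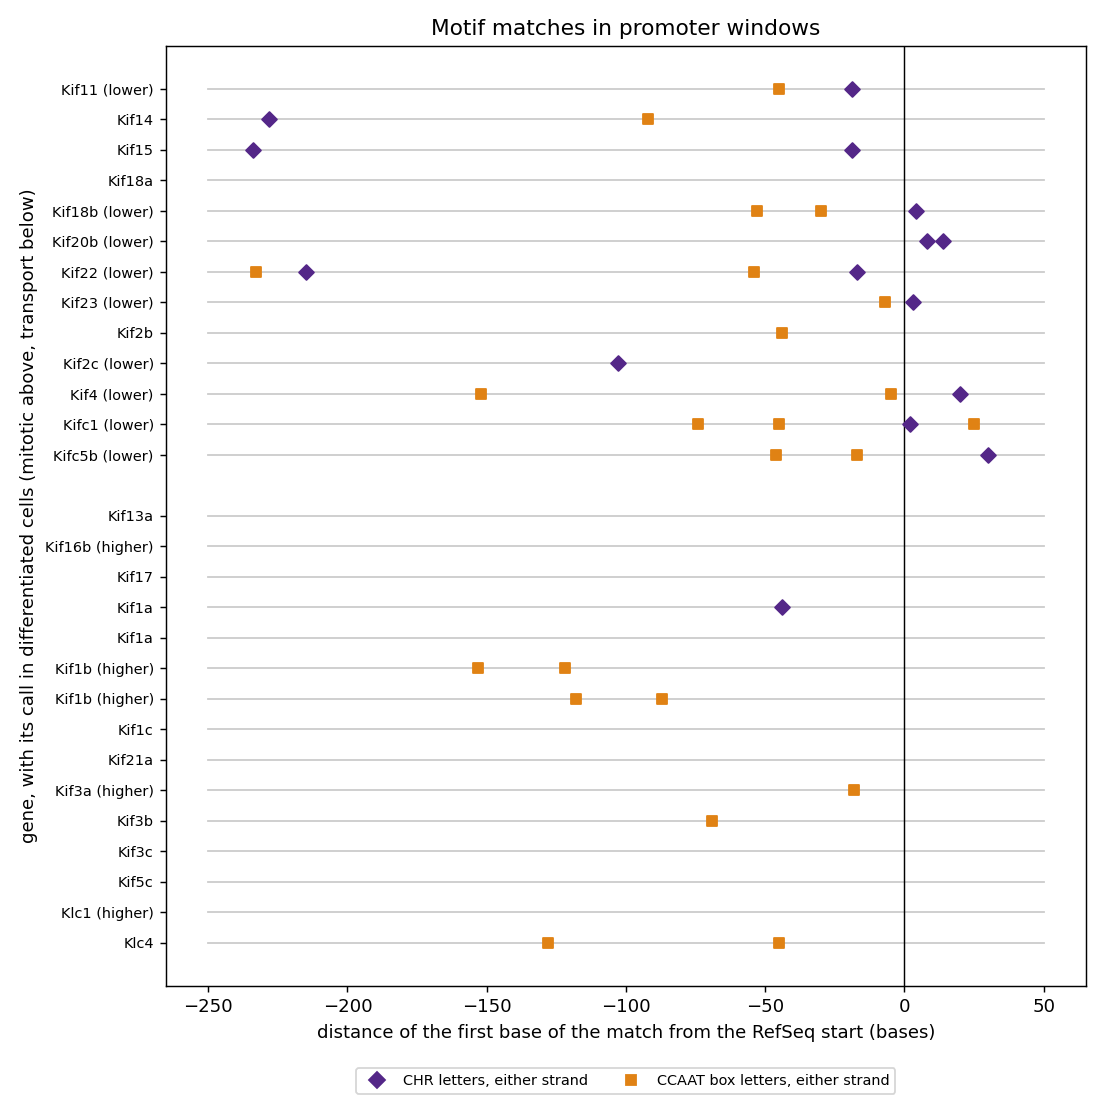
First base of each CHR match (diamonds) and CCAAT match (squares) on either strand, in bases from the RefSeq start, for the promoter windows of mitotic (above) and transport (below) kinesins. Diamonds gather near the start in the mitotic rows, and a single transport row holds one.

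Kif23, Kif20a, Kif4 and Kif20b, motors of the spindle midzone and of cytokinesis, fell in differentiated cells. Kif23 (MKLP1, the motor of the centralspindlin complex that bundles midzone microtubules) had signals of 23.9, 8.8 and 17.9 in differentiated cells, against 500.0, 455.4 and 401.3 in proliferating cells. The differentiated arrays were all at background and the proliferating arrays all far above it. The fitted log2 change was -3.90 (SE 0.32, limma adjusted p = 3.0e-06), and measured against background the signal was at least 7.62-fold lower. A further Kif23 probe set, also at background on all differentiated arrays, was at least 2.84-fold lower (limma adjusted p = 7.4e-04), and the third, dim in both groups, was not called (1.23, adjusted p = 0.11).

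Kif20a (MKLP2), which carries the Aurora B complex to the midzone, had signals of 90.9, 85.5 and 73.2 in differentiated cells and 918.5, 905.4 and 814.1 in proliferating cells. Replicates lay close together and the groups far apart, with a log2 change of -3.19 (SE 0.16, limma adjusted p = 3.5e-08), a 9.12-fold fall of signal + 15. Kif4, a chromokinesin that works with Prc1 at the midzone, had 109.0, 22.5 and 98.7 in differentiated cells and 579.5, 621.5 and 533.3 in proliferating cells. Its second differentiated array was at background and lower than the other two, and its log2 change was -2.87 (SE 0.37, limma adjusted p = 1.4e-04). Kif20b (MPP1), a slow motor of late cytokinesis, had 56.8, 64.5 and 23.1 in differentiated cells and 293.9, 219.2 and 266.0 in proliferating cells, a change of -2.18 (SE 0.34, limma adjusted p = 7.2e-04). Only 1 differentiated array of Kif20b was above background. With the mean of its 4 probe sets in place of the brightest, the change of Kif20b was -1.09 and was not called (adjusted p = 0.13). Another of these probe sets was called lower (-1.59, limma adjusted p = 0.027). It was at background on all differentiated arrays, so that value is not a measured size. The rest were at background on all 6 arrays and gave -0.17 and -0.44 without a call. Kif14, a motor of the midbody, was at background on all 6 arrays, so its probe set gives no direction.

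Of the motors that build the bipolar spindle, Kif11 and Kifc1 fell, with Kifc5b, and Kif15 was not called. Kif11 (Eg5), the tetrameric kinesin-5 that pushes spindle poles apart, had 84.1, 77.5 and 130.8 in differentiated cells and 568.1, 328.2 and 510.8 in proliferating cells. The groups did not overlap, the change was -2.10 (SE 0.25, limma adjusted p = 7.9e-05), and all 3 of its probe sets fell, with log2 changes of -2.43 and -2.71 at the other two. Kifc1 (HSET), a minus-end-directed motor that focuses spindle poles, had 105.6, 143.5 and 11.3 in differentiated cells and 735.7, 674.2 and 655.8 in proliferating cells. The third differentiated array was far below the other two, and the change was -3.14 (SE 0.49, limma adjusted p = 7.4e-04). Kifc5b is a close copy of Kifc1, and the Kifc1 probe set is of a type that can bind related transcripts, so their values may not be separate. The brightest probe sets of Kif22, Kif2c, Kif16b, Kif3b and Kif5a are of this type too. Kifc5b averaged 16.1 ± 4.94 in differentiated cells (SD, n = 3), against 51.0, 173.8 and 96.9 in proliferating cells. Its differentiated arrays were all at background, its first proliferating array was too, and its fall of at least 1.61-fold (log2 change -1.86, SE 0.51, limma adjusted p = 0.030) lost its call when any of 5 of the 6 arrays was left out (adjusted p 0.058 to 0.11). Kif15, a kinesin-12 that can stand in for Kif11, had 58.6, 54.4 and 61.3 in differentiated cells and 14.0, 15.4 and 62.0 in proliferating cells, all near background, and was not called (log2 change 0.84, adjusted p = 0.39).

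Motors on chromosomes and at microtubule ends completed the group. Kif22 (Kid), a chromokinesin that pushes chromosome arms, had 131.2, 150.0 and 108.5 in differentiated cells and 1060.7, 1155.9 and 654.3 in proliferating cells. The groups were clearly apart, with a change of -2.71 (SE 0.21, limma adjusted p = 1.7e-06), and its other two probe sets also fell, one with a change of -2.79 and the other, at background on all differentiated arrays, by at least 5.50-fold. Kif2c (MCAK), a kinesin-13 that takes microtubules apart at centromeres, had 51.8, 62.6 and 82.9 in differentiated cells and 988.6, 607.2 and 695.7 in proliferating cells, a change of -3.26 (SE 0.22, limma adjusted p = 6.7e-07). Only 1 differentiated array of Kif2c was above background. Its 4 probe sets did not give the same size of change: others gave -3.07 and -1.47 and passed, and the last gave -0.12 and was not called (adjusted p = 0.88).

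The paralogs Kif18a and Kif18b, kinesin-8 motors that act at the plus ends of spindle microtubules, both had lower signals on the differentiated arrays, and Kif18b was called. Kif18b had 157.9, 142.2 and 178.1 in differentiated cells and 789.4, 660.1 and 738.0 in proliferating cells (log2 change -2.09, SE 0.15, limma adjusted p = 9.2e-07). Kif18a had 48.6, 47.7 and 92.0 in differentiated cells and 120.3, 117.5 and 115.0 in proliferating cells. Its groups did not overlap either, but the proliferating signals were already close to background, and the change was -0.82 (95% interval -1.61 to -0.02, limma adjusted p = 0.21). The difference between the paralogs was not tested. Kif2b, a further kinesin-13, was at background on all 6 arrays.

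Of the 14 mitotic kinesins, 10 were above background on all 3 proliferating arrays. The exceptions were Kif2b, Kif14, Kif15 and Kifc5b.

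**Figure D3:**
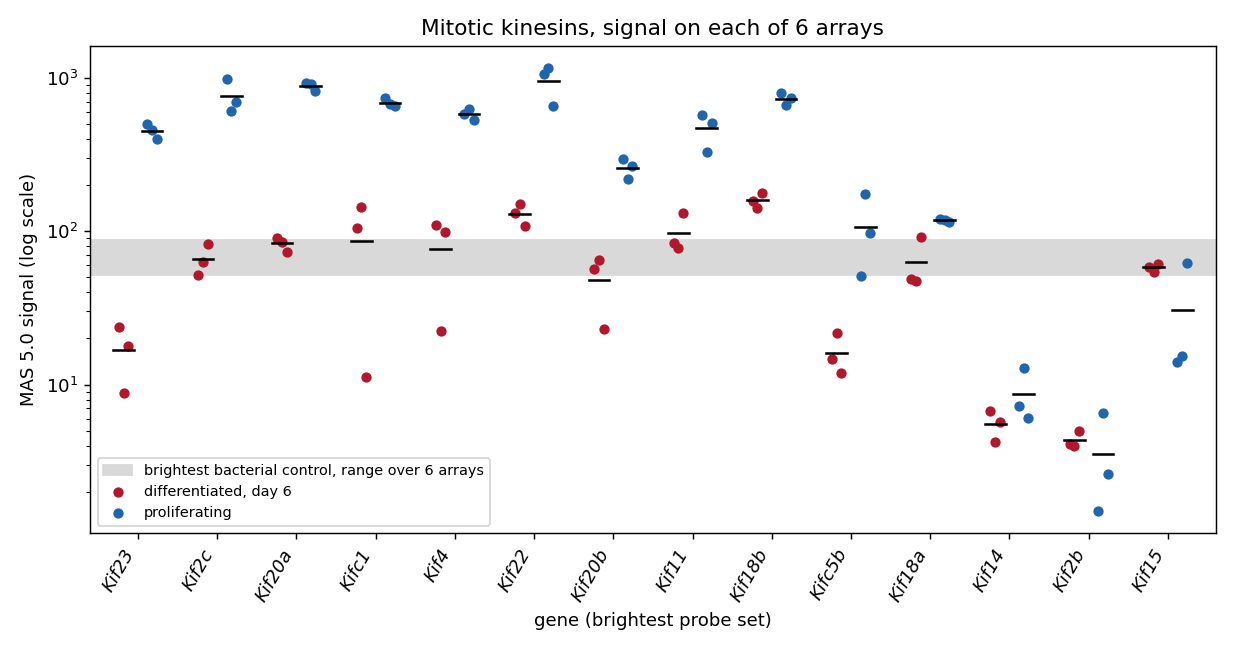
MAS5 signal (log scale) of the 14 mitotic kinesins at the brightest probe set on each of 3 differentiated (red, left) and 3 proliferating (blue, right) arrays, with bars at the means. The grey band is the range of the background, 51.9 to 87.0. Kif23 drops below the band in differentiated cells, while Kif14 and Kif2b lie below it in both groups.

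Cenpe, the kinetochore kinesin whose symbol lies outside the naming rule, had 84.1, 59.4 and 52.8 in differentiated cells and 594.8, 350.1 and 520.0 in proliferating cells (log2 change -2.63, limma adjusted p = 1.2e-05). Only 1 differentiated array of Cenpe was above background. Of 4 kinesin genes followed outside the rule, 1 fell (Cenpe), 1 rose (Kifap3, below) and 2 were not called. The uncalled genes were Klc3 (-0.18, limma adjusted p = 0.86) and Stard9 (0.12, limma adjusted p = 0.8). Of 19 genes whose products work with the mitotic kinesins, 18 fell (9.05% of all genes did), none rose, and the median change was -2.90. This list, too, was chosen with earlier results of these data known. Its members with the largest changes were Birc5 (survivin, a subunit of the Aurora B complex, -4.13) and Mki67 (the coat of mitotic chromosomes, -3.79). Hmmr (a spindle pole protein, -3.38) and Incenp (the scaffold of the Aurora B complex, -3.25) came next, with Cdk1 at the same value as Incenp. Numa1, which holds the spindle poles together and is also a nuclear protein of resting cells, was not called (-0.12, adjusted p = 0.69).

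Of the transport kinesins, kinesin-1 is the one known for spacing nuclei in muscle. Kif5b, its ubiquitous heavy chain, had 1434.2, 958.3 and 1598.9 in differentiated cells and 816.7, 552.5 and 731.2 in proliferating cells. The lowest differentiated array was above the highest proliferating one, and the change was 0.90 (SE 0.18, limma adjusted p = 0.0051), a 1.86-fold rise of signal + 15. Of its 6 probe sets, 4 rose, by 0.59 to 1.10. Another gave 0.47 and the last, near background, 0.10, and neither was called (adjusted p = 0.24 and 0.93). Kif5a and Kif5c are the heavy chains known mainly from neurons. Kif5c had 148.0, 162.5 and 190.6 in differentiated cells and 150.5, 162.5 and 120.3 in proliferating cells, groups that overlap, with a change of 0.19 (95% interval -0.32 to 0.71, adjusted p = 0.72). Other Kif5c probe sets, at background on almost all arrays, gave -0.85, -0.17 and 0.03 without a call. Kif5a was near background, at 73.1, 57.3 and 92.4 in differentiated cells and 55.3, 33.4 and 110.0 in proliferating cells (change 0.23, adjusted p = 0.84).

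Klc1, the light chain that links kinesin-1 to many cargoes, had 1269.9, 1125.4 and 1361.5 in differentiated cells and 911.6, 907.1 and 842.7 in proliferating cells. Its groups did not overlap, the change was 0.49 (SE 0.10, limma adjusted p = 0.0071), and all 3 of its probe sets rose, by 0.44 to 0.51. Klc4 had 412.8, 349.9 and 346.0 in differentiated cells and 349.5, 285.8 and 262.0 in proliferating cells. These overlap slightly, and the change of 0.30 (95% interval -0.05 to 0.64) was not called (adjusted p = 0.31).

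Kinesin-2 is a heterotrimer of Kif3a, Kif3b and the adaptor subunit Kifap3, known for transport in cilia and of endosomes. Kif3a had 708.4, 560.8 and 660.3 in differentiated cells and 489.6, 390.9 and 451.3 in proliferating cells, a change of 0.52 (SE 0.14, limma adjusted p = 0.023). Of its 4 probe sets 2 rose, the other passing one by 0.72 (adjusted p = 0.0013), and the remaining pair gave 0.59 and 0.31 (adjusted p = 0.094 and 0.35). Kif3b had 446.2, 550.5 and 467.2 in differentiated cells and 383.1, 372.1 and 385.1 in proliferating cells. The groups did not overlap, but the change of 0.34 was not called (adjusted p = 0.13), and the other Kif3b probe sets lay around 0 (0.11, -0.14 and -0.16). Kifap3, which the naming rule leaves out, had 2150.7, 2365.9 and 1882.9 in differentiated cells and 1142.6, 880.8 and 831.4 in proliferating cells, and rose by 1.16 (limma adjusted p = 4.8e-05). Whether Kifap3 changed more than its motor subunits was not tested. Kif3c and Kif17, other kinesin-2 motors, gave -0.09 and 0.40 and were not called (adjusted p = 0.79 and 0.36). The other Kif3c probe set gave 0.44, and the other Kif17 probe sets gave -0.09 and -0.28, all without a call.

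In kinesin-3, a family of fast membrane carriers, Kif1b and Kif16b rose. Kif1b, which moves mitochondria and vesicle precursors, had 1017.8, 1046.9 and 697.0 in differentiated cells and 513.1, 472.7 and 525.3 in proliferating cells (change 0.83, SE 0.15, limma adjusted p = 0.0022). Its 7 probe sets did not move together, and with their mean in place of the brightest the change was 0.20 and was not called (adjusted p = 0.47). A second one rose by 0.61 (adjusted p = 0.012), 4 gave values between -0.08 and 0.50 without a call, and 1 gave -0.68 with non-overlapping groups, lower in differentiated cells, and no call (adjusted p = 0.093). Which transcripts of Kif1b each probe set reads was not analysed here. Kif16b, a carrier of early endosomes, had 287.6, 299.6 and 252.6 in differentiated cells and 167.2, 155.5 and 177.0 in proliferating cells (change 0.70, SE 0.18, limma adjusted p = 0.023). The other Kif16b probe sets gave 0.48 and -0.04 and were not called. The call of Kif16b was lost when the mean of the probe sets was used (0.38, adjusted p = 0.56). It was also lost when probe sets that can bind related transcripts, such as its brightest, were left out (0.48, adjusted p = 0.55). Kif1c, Kif13a and Kif13b, carriers in Golgi and endosome traffic, gave 0.06, 0.21 and 0.24 with overlapping groups (adjusted p = 0.87, 0.51 and 0.59). Other Kif1c probe sets gave 0.71, 0.67 and 0.11, and other Kif13b probe sets gave 1.48, 1.23 and 0.30, all without a call. At 0.71, 0.67 and 1.48 the groups did not overlap, with differentiated higher. The probe set at 1.48 was at background on all proliferating arrays, so that value is not a measured size. Kif1a, the neuronal carrier of synaptic vesicle precursors, was near background (-0.62, adjusted p = 0.52), and Kif28 was at background on all 6 arrays.

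Of the minus-end-directed Kifc motors outside mitosis, Kifc3, which works at cell junctions and the Golgi, had 507.2, 460.1 and 365.4 in differentiated cells and 285.2, 248.2 and 209.1 in proliferating cells. These groups did not overlap, and the change was 0.80 (SE 0.17, limma adjusted p = 0.0071). Kifc2, known from neurons, had 62.1, 126.8 and 233.5 in differentiated cells and 246.0, 204.7 and 166.5 in proliferating cells, a spread in differentiated cells too wide for a call (-0.65, adjusted p = 0.34). Kif21a and Kif21b, kinesin-4 motors that slow microtubule growth, gave -0.19 and 0.20 (adjusted p = 0.66 and 0.62).

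**Figure D4:**
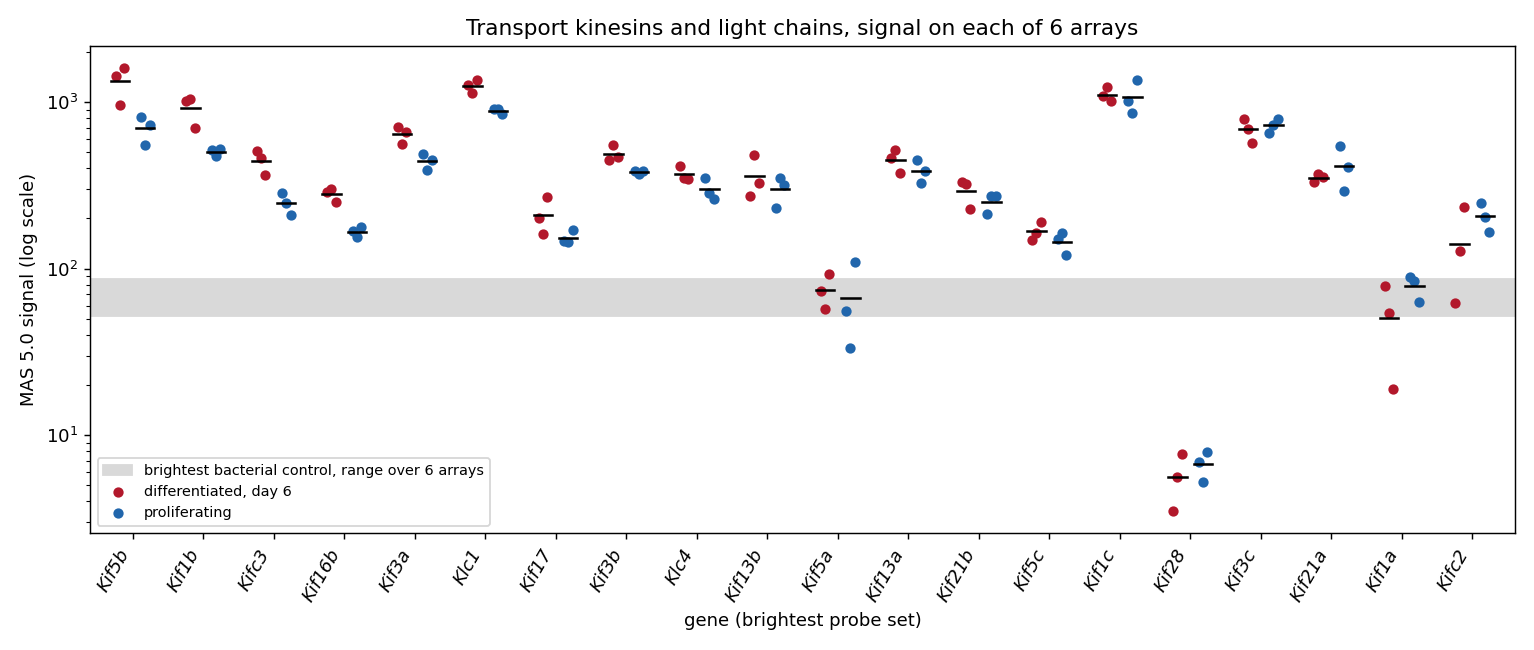
MAS5 signal (log scale) of the 20 transport kinesins and light chains at the brightest probe set on each of 3 differentiated (red, left) and 3 proliferating (blue, right) arrays, ordered by log2 change, with bars at the means and the background range of 51.9 to 87.0 in grey. The 6 genes at the left end are those that rose, with changes of 0.90 to 0.49, and Kif28 lies below the band in both groups.

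The rises of the transport kinesins were small beside the falls of the mitotic ones, and they rested more on how the variance was estimated. None of the 6 transport calls, nor those of Kif2a and Kif26b, was kept when limma's prior variance did not follow signal strength (adjusted p 0.059 to 0.18), whereas 9 of the 10 mitotic calls were. Without the first differentiated array 3 of the 6 transport genes were called, with Kif3a, Kif16b and Kifc3 lost (adjusted p = 0.11, 0.089 and 0.051). Kif3a was also lost without the third differentiated, the second proliferating or the third proliferating array (adjusted p = 0.071, 0.074 and 0.057). Kif16b was also lost without the second differentiated, the first proliferating or the second proliferating array (adjusted p = 0.096, 0.055 and 0.055).

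Outside both classes, Kif2a, a kinesin-13 that shortens microtubules at spindle poles and in axons, had 536.4, 488.7 and 398.3 in differentiated cells and 875.9, 765.1 and 953.3 in proliferating cells. The groups did not overlap, the change was -0.85 (SE 0.14, limma adjusted p = 8.8e-04), and 4 of its 5 probe sets fell, by 0.75 to 0.91. Kif26b, which lacks motor activity and acts in kidney development in mice, had 342.3, 350.9 and 486.9 in differentiated cells and 235.1, 195.8 and 193.0 in proliferating cells, a change of 0.86 (SE 0.18, limma adjusted p = 0.0062). Kif9, a motor of motile cilia, had 110.9, 124.2 and 111.5 in differentiated cells and 48.0, 100.4 and 14.3 in proliferating cells. It showed the largest fitted rise of the 43 genes, 1.13, but the proliferating arrays scattered around background and it was not called (adjusted p = 0.19). Kif24, known from the base of cilia, gave -0.50 with groups that did not overlap and no call (adjusted p = 0.38). Kif6, Kif7 and Kif12 gave 0.26, 0.00 and -0.14 without a call, and Kif26a and Kif27 were at background on all 6 arrays.

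**Figure D5:**
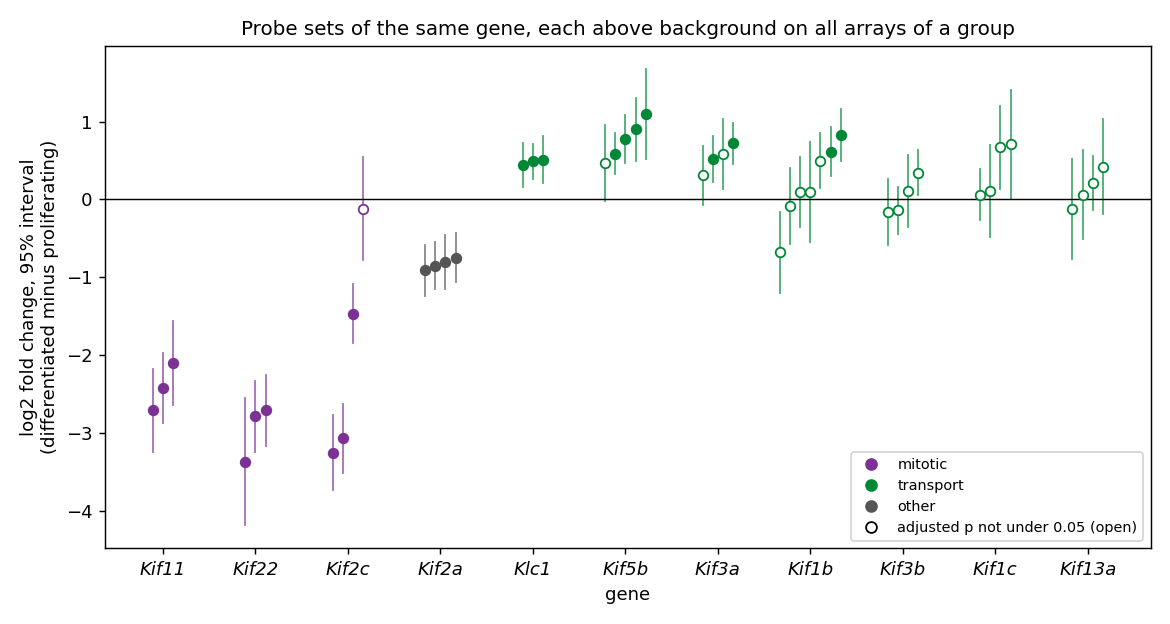
Log2 fold change, differentiated minus proliferating, of each probe set of 11 kinesin genes with several probe sets above background on all arrays of a group, with 95% intervals. Filled points passed an adjusted p of 0.05 in limma. All probe sets of Kif11, Kif22, Kif2a and Klc1 shown passed in 1 direction, while those of Kif1b lie between -0.68 and 0.83. The lowest point of Kif22 is at background on all differentiated arrays.

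The partners of the transport kinesins, their adaptors and regulators, were followed as a list of 27 genes, of which 24 were measured. Of these 6 rose, 1 fell and 17 were not called, with a median change of 0.32. Over all genes 8.67% rose and 9.05% fell, with a median change of 0.06. Fez1, an adaptor of kinesin-1, had 534.0, 334.8 and 517.8 in differentiated cells and 14.5, 67.5 and 76.1 in proliferating cells, a change of 2.95 (SE 0.39, limma adjusted p = 1.8e-04). The first proliferating array of Fez1 was at background and the others were near it. Syne1 (nesprin-1), which anchors kinesin-1 and other motors to the nuclear envelope, had 826.1, 904.9 and 836.2 in differentiated cells and 259.5, 314.7 and 266.9 in proliferating cells, a change of 1.56 (SE 0.13, limma adjusted p = 2.9e-06). Its relative Syne2 (nesprin-2) was the member that fell, with 56.8, 63.1 and 55.5 in differentiated cells and 163.6, 108.6 and 227.1 in proliferating cells (change -1.25, SE 0.35, limma adjusted p = 0.031). Only 1 differentiated array of Syne2 was above background. Kidins220, a membrane protein carried by kinesin-1, had 2467.6, 2787.1 and 2100.0 in differentiated cells and 1315.8, 1092.6 and 1222.6 in proliferating cells, a 2.01-fold rise of signal + 15 (limma adjusted p = 6.8e-05). Trak2, Rhot1 and Kifbp, of which the first pair links kinesin-1 to mitochondria, also rose (0.86, 0.44 and 0.36). Trak1 and Rhot2, their paralogs, were not called (0.19 and 0.08).

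Dynein is the motor that walks the opposite way to most kinesins. Of 27 genes of dynein, dynactin and their regulators, 23 were measured, 4 rose and 1 fell, with a median change of 0.26. Of all genes 8.67% rose and 9.05% fell. The heavy chain Dync1h1 and dynactin's largest subunit Dctn1 were not called (0.30 and 0.15, adjusted p = 0.061 and 0.55). Dync2li1, a light intermediate chain of the dynein of cilia, rose by 1.21 (limma adjusted p = 6.9e-05), with signals of 629.0, 667.1 and 628.9 in differentiated cells and 247.8, 319.5 and 242.9 in proliferating cells. Bicd2, an adaptor of dynein, rose by 0.82 and Dynlt3, a light chain, by 0.64 (limma adjusted p = 5.2e-05 and 0.0013). Nde1 and Ndel1 are paralogous dynein regulators. Nde1, known from dividing cells, had 497.9, 481.1 and 436.4 in differentiated cells and 926.3, 912.1 and 928.7 in proliferating cells and fell by 0.95 (limma adjusted p = 5.7e-05), while Ndel1 had 1712.3, 1694.3 and 1915.0 in differentiated cells and 1277.0, 1427.6 and 1415.2 in proliferating cells and rose by 0.37 (limma adjusted p = 0.025).

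Since several transport kinesins are best known from neurons, 10 neuron markers were read as well. None rose and 4 fell, beside 8.67% higher and 9.05% lower of all genes. The neurofilament Nefl fell most (-4.18). The summed signal of the 10 markers was 618 to 1011 in differentiated cells and 2677 to 2795 in proliferating cells. Nefl alone averaged 1380 in proliferating cells, so these sums rest largely on single genes, and Snap25 was at background on all 6 arrays. Of 6 adipocyte markers 4 were measured and none was called, with sums of 107 to 199 in differentiated cells and 25.3 to 120 in proliferating cells. Lep and Cidec were at background on all 6 arrays, and Adipoq and Fabp4 on all proliferating arrays, so these sums lie near the floor. All 6 arrays read cultures of the C2C12 myoblast line, and a link of these markers to the kinesin values was not tested.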

How the data were processed

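The authors deposited 1 table of MAS5 signal intensity for the 6 arrays, scaled to the same trimmed mean. The intensity values are linear, and the study's own probe-level normalization could not be repeated from them. After 64 Affymetrix controls were left out, log2(signal + 15) was tested in R 4.3.3 with limma 3.58.1 (lmFit, eBayes with a variance trend), differentiated against proliferating, without a replicate block. Probe sets naming several genes (932) were left out of gene values. Where all arrays of a group were at background, folds were computed against that background and are bounds. All 43 kinesins were accounted for, those called with every array (Kifc5b with its differentiated mean). From each partner list up to 4 called genes with the largest change were to be named, and the other partner genes in the text were chosen after their values were seen. The members, classes and lists were chosen with earlier results of these data known. Signals of different probe sets were summed for the neuron and adipocyte markers, and were not otherwise compared. Other pseudocounts, scalings, probe set rules, a regularized t-test and leaving out each array were tried. The number of arrays limits the precision, and scripts were tested on simulated data. Kinesin proteins were not analysed here.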

Additional observations from a re-analysis of the deposited data

How the results depend on the processing

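The directions of all called kinesins held under the alternatives run. Of the 10 mitotic calls, 8 were kept under every alternative that gave a value, and none of the 6 transport calls was. Without a variance trend no transport kinesin was called higher (0), nor any other kinesin higher (0) or lower (0), and 9 mitotic kinesins were called lower. An unadjusted p under 0.05 gave 2 other kinesins higher. Leaving out 1 array gave 3 to 5 transport kinesins higher and 9 to 10 mitotic kinesins lower, with medians of 0.23 to 0.31 and -2.31 to -2.12. Without dim probe sets the mitotic median was -2.71. With a 1.5-fold minimum 4 transport kinesins were called, without Klc1 and Kif3a. The mean of all probe sets also gave 4, without Kif1b (0.20) and Kif16b (0.38). The cause was not tested.

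Uncalled genes changed sign. With the mean of all probe sets these were Kif5c (-0.20), Kif3c (0.17) and Kif13a (-0.06). Without probe sets that can bind related transcripts, an alternative chosen after seeing the data, they were Kif5a (-0.16) and Kif3b (-0.14). Kif7 gave -0.10 after quantile normalization and -0.05 after scaling to the 75th percentile. With 1 array left out, the values ran between -0.34 and 0.00 for Kif12, -0.08 and 0.24 for Kif1c, -0.20 and 0.03 for Kif3c, -0.05 and 0.04 for Kif7, -0.01 and 0.18 for Kif2b, -0.40 and 0.03 for Kif21a, -0.09 and 0.60 for Kif5a, and -0.34 and 0.57 for Kif6. Quantile normalization moved the median of all genes to 0.01.

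Arrays with the same replicate number did not deviate together (correlation of deviations 0.001 to 0.012), so the numbers were not taken as pairs. With the replicate block 10 mitotic kinesins were lower and 6 transport kinesins higher, as without it.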
